A study of Mus musculus with 13 samples.

Results

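Ubiquitin-specific proteases, the Usp genes, were followed in 13 libraries of mouse oocytes and eggs. All genes of the count table whose Ensembl ID carried a symbol of Usp followed by a number were taken, pseudogenes marked with -ps apart, which gave 58 genes of 54232. Of these, 50 had enough counts to be tested among 20143 genes, and 8 did not. Each library came from a pool of 25 cells. The groups were metaphase II (MII) eggs of Sirena1 Null females (n = 4), MII eggs of wild-type (WT) females (n = 3), germinal vesicle (GV) oocytes of Sirena1 Null females (n = 3) and GV oocytes of WT females (n = 3). GV oocytes are fully grown and have not resumed meiosis. They were collected with IBMX, which holds that arrest, and the eggs were collected after hCG. Null females carry a Cas9-made deletion of the promoter of Sirena1, a long noncoding RNA of the oocyte, in a line bred on with C57BL/6NCrl mice. The labels give the strain of all groups as C57BL6/J. They do not state the number of founders, or whether the pools of a group came from separate females, so the p values measure the spread between these pools, which may be technical.

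Ubiquitin is joined to proteins as single units or chains that send them to the proteasome, move them between membranes or switch their activity. Ubiquitin-specific proteases cut ubiquitin off again and form a large family of deubiquitinases. They act on histones, on DNA repair and replication proteins, on receptors in endosomes and on cell cycle proteins. The fully grown oocyte is transcriptionally quiet, and maturation to the egg proceeds on stored mRNAs, of which some are degraded and others are recruited for translation.

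During maturation the Usp mRNAs lay, by their median log2 fold change, 0.31 above all genes in Null and 0.21 above all genes in WT, and a few fell. Whether most of them rose depends on how the libraries are scaled. With TMM factors, which set most genes near 0, 19 genes rose in both genotypes. Of all genes 22.1% rose in Null and 19.9% in WT, and the share that rose in both was not computed. Of the 19, 5 genes, Usp8, Usp10, Usp11, Usp21 and Usp28, also rose when counts were set only against library totals. Of all genes 9.90% then rose in Null and 9.12% in WT. In WT, Usp50 stood 7.77-fold lower in eggs than in GV oocytes, and Usp8, its neighbour on chromosome 2, stood 1.55-fold higher. Between Null and WT, 0 of 50 Usp genes passed the test at either stage, against 0.0546% of all genes at each.

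The promoters of the 4 genes that fell in both genotypes, and of Usp8 beside Usp50, are shown because the 4 fell under both kinds of scaling and Usp8 rose beside Usp50. Each window is 300 bases long in GRCm38.p6 and is written on the strand of the gene. For Usp50, Usp12 and Usp27x it runs from 250 bases before to 50 bases after the RefSeq start of the gene. For Usp8 and Usp35 it does not, as the annotated gene starts, at 126707201 and 97332308, lie elsewhere within the window. More of these windows thus lies inside the gene. Capitals mark the GC box GGGCGG on either strand, the only one of 3 motifs searched that was found in them.
Usp50 at chr2:126783411-126783710, minus strand: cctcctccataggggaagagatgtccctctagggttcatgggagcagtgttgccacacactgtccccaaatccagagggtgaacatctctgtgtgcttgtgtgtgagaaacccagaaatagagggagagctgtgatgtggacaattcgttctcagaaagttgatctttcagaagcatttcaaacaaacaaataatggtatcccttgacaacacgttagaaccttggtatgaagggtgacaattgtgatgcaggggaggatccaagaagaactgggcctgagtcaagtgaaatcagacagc
Usp8 at chr2:126707078-126707377, plus strand: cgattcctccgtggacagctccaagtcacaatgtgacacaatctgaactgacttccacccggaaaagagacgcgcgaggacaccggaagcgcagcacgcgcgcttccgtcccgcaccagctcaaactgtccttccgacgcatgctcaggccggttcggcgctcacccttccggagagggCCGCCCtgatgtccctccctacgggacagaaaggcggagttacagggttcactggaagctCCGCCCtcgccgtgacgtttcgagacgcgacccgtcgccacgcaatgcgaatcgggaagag
Usp12 at chr5:146794907-146795206, minus strand: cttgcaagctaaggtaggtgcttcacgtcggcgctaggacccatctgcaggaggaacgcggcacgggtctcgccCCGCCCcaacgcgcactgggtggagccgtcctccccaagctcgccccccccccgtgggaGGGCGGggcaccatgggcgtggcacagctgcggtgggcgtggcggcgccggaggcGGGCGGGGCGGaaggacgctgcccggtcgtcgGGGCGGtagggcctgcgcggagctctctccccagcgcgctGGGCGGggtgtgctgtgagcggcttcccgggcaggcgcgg
Usp35 at chr7:97332060-97332359, minus strand: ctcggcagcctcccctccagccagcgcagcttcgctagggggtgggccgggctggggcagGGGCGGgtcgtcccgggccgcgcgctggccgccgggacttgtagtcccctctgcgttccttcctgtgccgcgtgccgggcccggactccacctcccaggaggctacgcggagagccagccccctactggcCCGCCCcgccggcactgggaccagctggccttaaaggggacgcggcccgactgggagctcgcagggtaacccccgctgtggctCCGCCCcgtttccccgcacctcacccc
Usp27x at chrX:7375781-7376080, minus strand: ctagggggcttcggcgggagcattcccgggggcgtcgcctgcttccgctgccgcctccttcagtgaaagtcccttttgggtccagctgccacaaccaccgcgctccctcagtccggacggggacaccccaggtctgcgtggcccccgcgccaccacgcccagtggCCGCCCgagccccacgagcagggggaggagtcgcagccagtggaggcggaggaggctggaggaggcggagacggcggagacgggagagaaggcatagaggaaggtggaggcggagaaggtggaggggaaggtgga
The Usp50 window holds 0 GC boxes and 2 CpG, with a GC content of 47.0%. The Usp8 window holds 2 GC boxes and 34 CpG, with a GC content of 62.7%. The other 3 windows hold 1 to 6 GC boxes, 25 to 37 CpG and 70.3% to 75.7% GC. Usp50 thus differs in base composition from the other genes that fell. RefSeq gave a promoter for 44 of the 58 genes. GGGCGG was found, on either strand, in 27 of the 44 (61.4%), against 35.9% of all 27025 promoters of this length. TATAAA was found in 5 of 44 (11.4%, against 14.2%) and CCAAT in 15 of 44 (34.1%, against 37.9%), and neither was found in the 5 windows above. A match is a string of letters and not a measured binding site.

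Total counts ran from 30867614 to 41285507 per library, and levels are given as CPM, counts scaled to a common library total, after TMM scaling. At this depth 3 counts correspond to 0.0671 to 0.105 CPM. Sirena1 stood at 35.9 to 45.0 CPM in MII Null, 4268 to 4689 CPM in MII WT, 23.3 to 26.4 CPM in GV Null and 2910 to 3089 CPM in GV WT, so each library matched its genotype label. All 14 oocyte markers reached 1 CPM in each group. Of 23 cumulus and granulosa markers, 6 reached 1 CPM in MII Null, 7 in MII WT, 18 in GV Null and 12 in GV WT, and Inha, Foxl2, Fst and Amh were at 0 in MII WT. Their summed level was 94.9 to 128 CPM in MII Null, 104 to 107 CPM in MII WT, 97.7 to 626 CPM in GV Null and 95.4 to 127 CPM in GV WT. Nr5a2 and Cyp19a1, at 54.8 to 72.4 CPM and 26.2 to 36.5 CPM in the group means, made up most of that sum in eggs. Without both, the sum was 6.03, 5.21, 6.48 and 24.0 CPM in MII Null replicates 1 to 4 and 7.11 to 8.27 CPM in MII WT. In GV Null it was 19.7 CPM (replicate 1), 522 CPM (replicate 2) and 167 CPM (replicate 3), against 15.6 to 42.5 CPM in GV WT. On the leading principal component (85.8% of the variance) MII Null replicates 1 to 4 lay at 33.5, 44.9, 48.8 and 21.6. MII WT lay at 39.8 to 45.0 and the GV libraries at -50.2 to -42.4. The MII Null libraries were thus spread out, with replicate 4 and then replicate 1 nearest to the GV libraries.

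The 58 genes together held 0.892 ± 0.0586% of counts in MII Null (SD, n = 4), 0.892 ± 0.00815% in MII WT (n = 3), 0.891 ± 0.0569% in GV Null (n = 3) and 0.921 ± 0.00904% in GV WT (n = 3). The median coefficient of variation of the 50 tested genes was 10.2% in MII Null, 5.62% in MII WT, 9.13% in GV Null and 5.19% in GV WT. Over all tested genes it was 17.4%, 13.0%, 13.2% and 9.96% in the same groups. The WT libraries were thus closer to each other than the Null libraries at both stages, in this family as over all genes. A filter of 5 CPM kept 45 of the 50 Usp genes but 11188 of the 20143 genes, so the family and its background differ in level.

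The 8 genes that were not tested had at most 20 counts in any library. Usp18, which removes the ubiquitin-like ISG15, reached at most 5 counts. Usp9y, the Y-linked copy of Usp9x, had a single count in each of 2 libraries. Usp17la, Usp17lb, Usp17lc and Usp17ld belong to a multicopy cluster on chromosome 7 whose reads may be shared among near-identical copies, so their counts are uncertain. Usp46os1 and Usp46os2 are noncoding genes antisense to Usp46 and reached at most 3 counts. One tested gene, Usp6nl, carries the name of the family but encodes a Rab GTPase-activating protein and not a protease.

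In WT, 24 of the 50 genes passed the test between eggs and GV oocytes (edgeR's quasi-likelihood test, Benjamini-Hochberg adjusted p under 0.05), 48% against 42.7% of all genes tested. At an unadjusted p under 0.05 there were 29 (58%, against 49.6%). Higher in eggs were 20 (40%, against 19.9% of all genes) and lower 4 (8%, against 22.8%). The median log2 fold change of the 50 genes was 0.21, against 0.01 over all genes, and 38 of 50 (76%) lay above 0, against 50.3%. All libraries of eggs lay above all libraries of GV oocytes for 27 of the 50 genes (54%, against 28.2%) and below them for 8 (16%, against 30.1%). With a filter of 5 CPM, which shifted the log2 fold changes of all genes by a median of -0.10 through the scaling, 22 of 45 genes passed (48.9%), fewer than the 54.4% of all genes then tested. Of these, 15 were higher (33.3%, against 24%) and 7 lower (15.6%, against 30.4%), with Usp2, Usp7, Usp14 and Usp20 then among the lower. The median of the 45 genes was 0.14, against 0.001 over all genes then tested. Of the 24 genes, 17 passed in each of the 13 fits that left out 1 library, and Usp3, Usp13, Usp15, Usp16, Usp19, Usp24 and Usp38 did not. Since levels are relative to the scaled total of each library, fewer cells with an mRNA, less of it per cell and a change in the RNA it is measured against cannot be told apart. The RNA is labelled polyA, and the part of poly(A) tail length in these changes was not tested.

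In Null, 35 of the 50 genes passed the same test, 70% against 49% of all genes, and 37 had an unadjusted p under 0.05 (74%, against 54.8%). Higher in eggs were 28 (56%, against 22.1%) and lower 7 (14%, against 26.9%). The median log2 fold change was 0.26, against -0.05 over all genes. With the filter of 5 CPM, 27 of 45 passed, and the share equalled that of all genes, at 60% each. The median of the 45 genes was 0.22, against -0.02 over all genes then tested. Libraries did not overlap for 23 genes higher in eggs (46%, against 21.2%) and 3 lower (6%, against 25.2%). GV Null replicates 2 and 3 held the high cumulus marker sums given above. With replicate 1 as the only GV Null library, 16 of 52 genes passed (30.8%, against 26.1% of all genes), 12 higher (23.1%, against 10.7%) and 4 lower (7.69%, against 15.4%). In that fit the spread of the lone library is assumed to be that of the other groups, so a call lost there does not show a smaller change. The part of cumulus RNA in these counts was not tested. Of the 35 genes, 23 passed in each of the 13 fits that left out 1 library. Usp4, Usp6nl, Usp13, Usp22, Usp25, Usp26, Usp27x, Usp35, Usp38, Usp42, Usp45 and Usp47 did not.

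These splits depend on the scaling. The TMM factors were 0.905 to 0.958 in eggs and 1.05 to 1.12 in GV oocytes. Without them, with counts set against library totals, the log2 fold changes of all genes shifted by a median of -0.23 in Null and -0.20 in WT. In Null 22 of 50 Usp genes then passed (44%, against 46.1% of all genes), 9 higher (18%, against 9.90%) and 13 lower (26%, against 36.2%). In WT 17 passed (34%, against 38.4%), 7 higher (14%, against 9.12%) and 10 lower (20%, against 29.3%). The median of the 50 genes was then 0.04 in Null and 0.01 in WT, against -0.27 and -0.19 over all genes. Usp2, Usp7, Usp14 and Usp20 joined Usp12, Usp27x, Usp35 and Usp50 as lower in both genotypes, and Usp42, higher in Null with TMM, had a log2 fold change below 0. All changes given from here on are TMM-scaled and thus relative to the bulk of genes, and of the 19 genes named next as rising in both genotypes, all but Usp8, Usp10, Usp11, Usp21 and Usp28 missed the threshold in at least 1 genotype under library totals.

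In both genotypes 19 genes rose and 4 fell, and 0 went opposite ways. Of all genes 22.1% rose and 26.9% fell in Null, and 19.9% rose and 22.8% fell in WT. The share of all genes that passed in both genotypes was not computed, so these 3 counts have no direct background. The 19 were Usp1, Usp8, Usp10, Usp11, Usp13, Usp15, Usp16, Usp19, Usp21, Usp24, Usp28, Usp30, Usp31, Usp33, Usp34, Usp37, Usp38, Usp43 and Usp54. The 4 were Usp12, Usp27x, Usp35 and Usp50. Usp3 passed in WT and not in Null. In Null and not in WT, 9 genes passed as higher (Usp4, Usp6nl, Usp26, Usp29, Usp42, Usp45, Usp47, Usp51 and Usp53) and 3 as lower (Usp20, Usp22 and Usp25). The difference between the genotypes' changes was itself tested, and 0 of 50 genes passed (against 0.00496% of all genes). None of these genes was thus shown to change differently. Across the 50 genes the log2 fold changes in Null and in WT, which share no library, correlated with r = 0.88 and rho = 0.89, and 43 had the same sign.

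**Figure D1:**
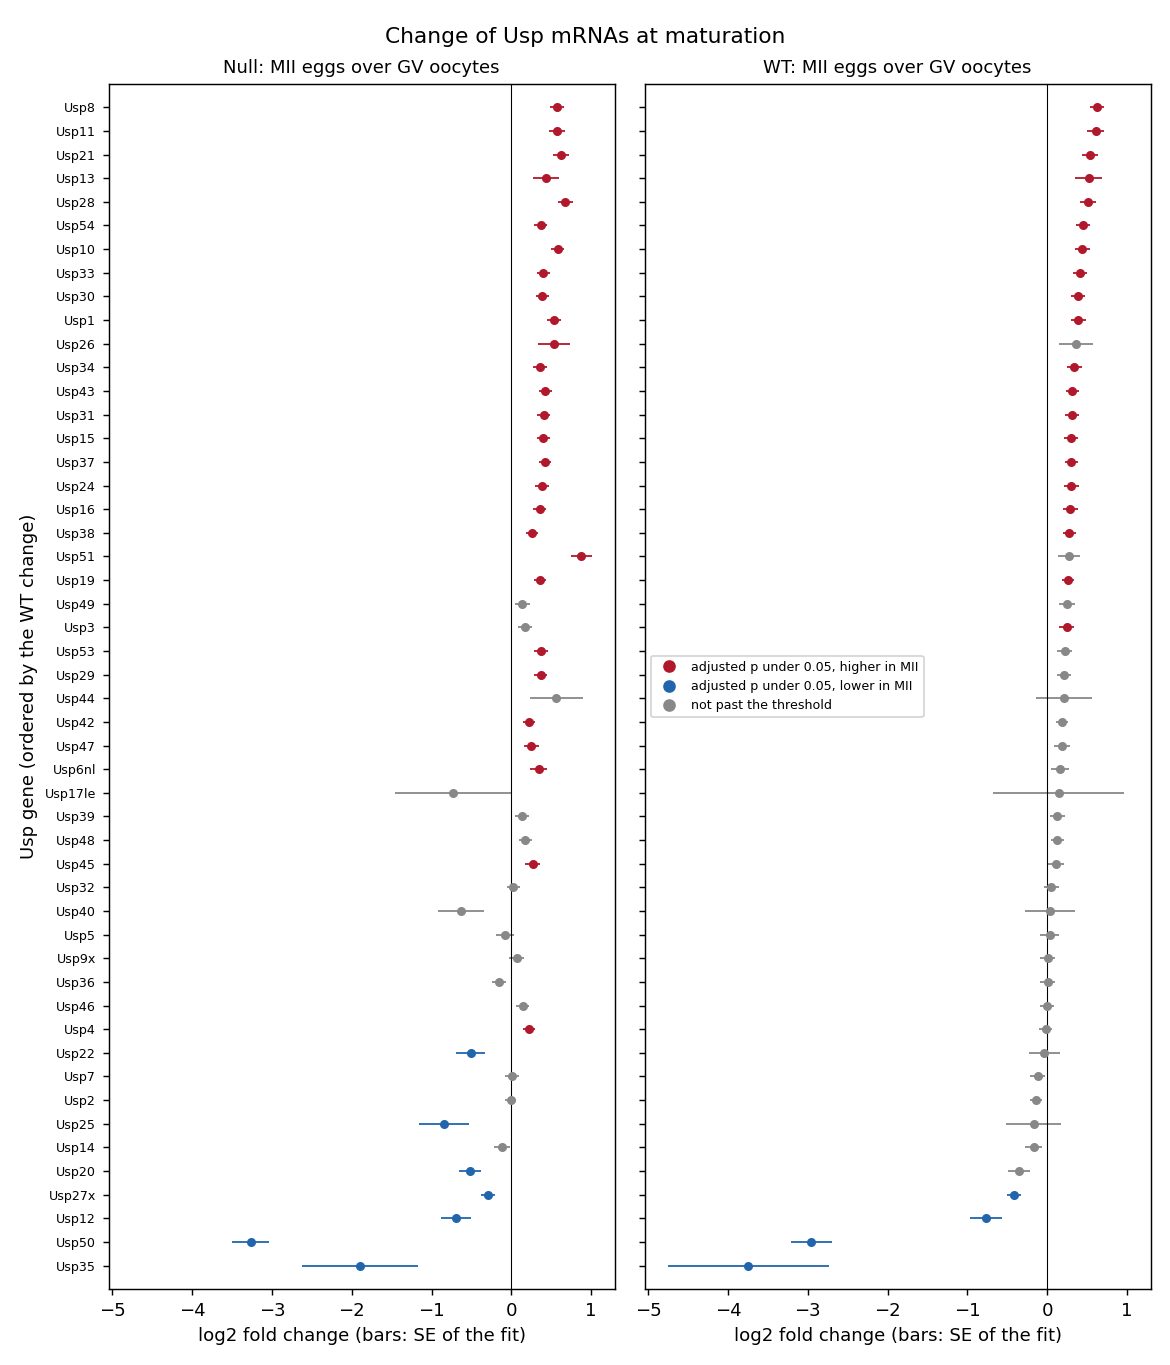
Log2 fold changes of MII eggs over GV oocytes for the 50 tested Usp genes in Null (left) and WT (right), with the SE of the fit as bars, ordered by the WT value and on a common axis. With TMM scaling most points lie at or a little above 0, from which Usp50 at -3.27 in Null and -2.96 in WT and Usp35 at -1.90 in Null and -3.74 in WT lie far to the left.

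Usp50, annotated in human as catalytically inactive, lies on chromosome 2 from 126761050 to 126783460 on the minus strand. Its level was 2.41, 1.08, 1.397 and 1.89 CPM in the MII Null libraries and 2.02, 2.65 and 1.14 CPM in the MII WT libraries. In GV oocytes it was 18.7, 15.9 and 15.1 CPM in Null and 16.2, 14.3 and 14.6 CPM in WT. All egg libraries lay far below all GV libraries in both genotypes. The log2 fold change was -3.27 in Null (SE 0.23, adjusted p = 6.62e-09 by edgeR) and -2.96 in WT (SE 0.26, adjusted p = 8.74e-08), and over all alternative settings it stayed between -3.53 and -3.13 in Null and between -3.25 and -2.68 in WT.

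Usp8, which sorts receptors at endosomes with the ESCRT machinery, ends 1735 bases before Usp50 on the opposite strand, from 126707201 to 126759314. It stood at 152, 196, 192 and 156 CPM in MII Null and 176, 179.7 and 172 CPM in MII WT. GV oocytes had 123, 113 and 115 CPM in Null and 114, 115 and 112 CPM in WT. No egg library overlapped a GV library. The log2 fold change was 0.57 in Null (SE 0.09, adjusted p = 2.51e-05 by edgeR) and 0.63 in WT (SE 0.09, adjusted p = 2.10e-05). The neighbours thus moved in opposite directions in both genotypes. The counting strand is not given in the sources used here, but the annotated genes do not overlap.

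Usp35, a deubiquitinase linked in human cells to mitochondrial quality control, lies on chromosome 7 from 97309403 to 97332308 and was near the detection limit in eggs. The MII Null libraries held 4, 4, 8 and 44 counts and the MII WT libraries 2, 6 and 0, against 38, 103 and 58 in GV Null and 58, 57 and 39 in GV WT. Summed over libraries, that is 8 counts in MII WT, against 154 in GV WT. Every MII WT library lay below every GV WT library, whereas MII Null replicate 4 reached the GV range. The fitted change on the log2 scale was -1.90 in Null (SE 0.73, adjusted p = 0.0465 by edgeR) and -3.74 in WT (SE 1.01, adjusted p = 0.00941). In Null the call was lost in 9 of the 13 fits that each left out 1 library, those without MII Null replicate 1, 2 or 3, MII WT replicate 1, GV Null replicate 2 or 3, or any GV WT replicate. The values there lay between -1.95 and -1.43, with adjusted p up to 0.170. In WT it passed in each of those 13 fits.

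Usp12, which works with the cofactors Wdr48 and Wdr20, lies on chromosome 5 from 146734809 to 146794956. It was at 7.68, 9.73, 9.34 and 14.5 CPM in MII Null and 8.07, 11.2 and 8.69 CPM in MII WT, against 12.9, 18.8 and 18.4 CPM in GV Null and 17.1, 16.3 and 14.01 CPM in GV WT. The WT groups did not overlap, while MII Null replicate 4 lay above GV Null replicate 1. Usp12 fell by 0.70 on the log2 scale in Null (SE 0.19, adjusted p = 0.00571 by edgeR) and by 0.77 in WT (SE 0.21, adjusted p = 0.00639). With GV Null replicate 1 as the only GV Null library the Null change was -0.32.

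Usp27x, an X-linked intronless relative of Usp22, lies on the X chromosome from 7372591 to 7375830. Its values were 42.4, 43.5, 45.4 and 45.9 CPM in MII Null and 40.2, 39.3 and 45.4 CPM in MII WT. GV Null had 59.9, 49.5 and 53.1 CPM and GV WT 55.3, 58.8 and 52.7 CPM. The stages did not overlap in either genotype, though the gap was small. The log2 fold change was -0.29 in Null (SE 0.08, adjusted p = 0.00774 by edgeR), -0.21 without GV Null replicate 1 (adjusted p = 0.0548), and -0.42 in WT (SE 0.09, adjusted p = 0.00107).

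**Figure D2:**
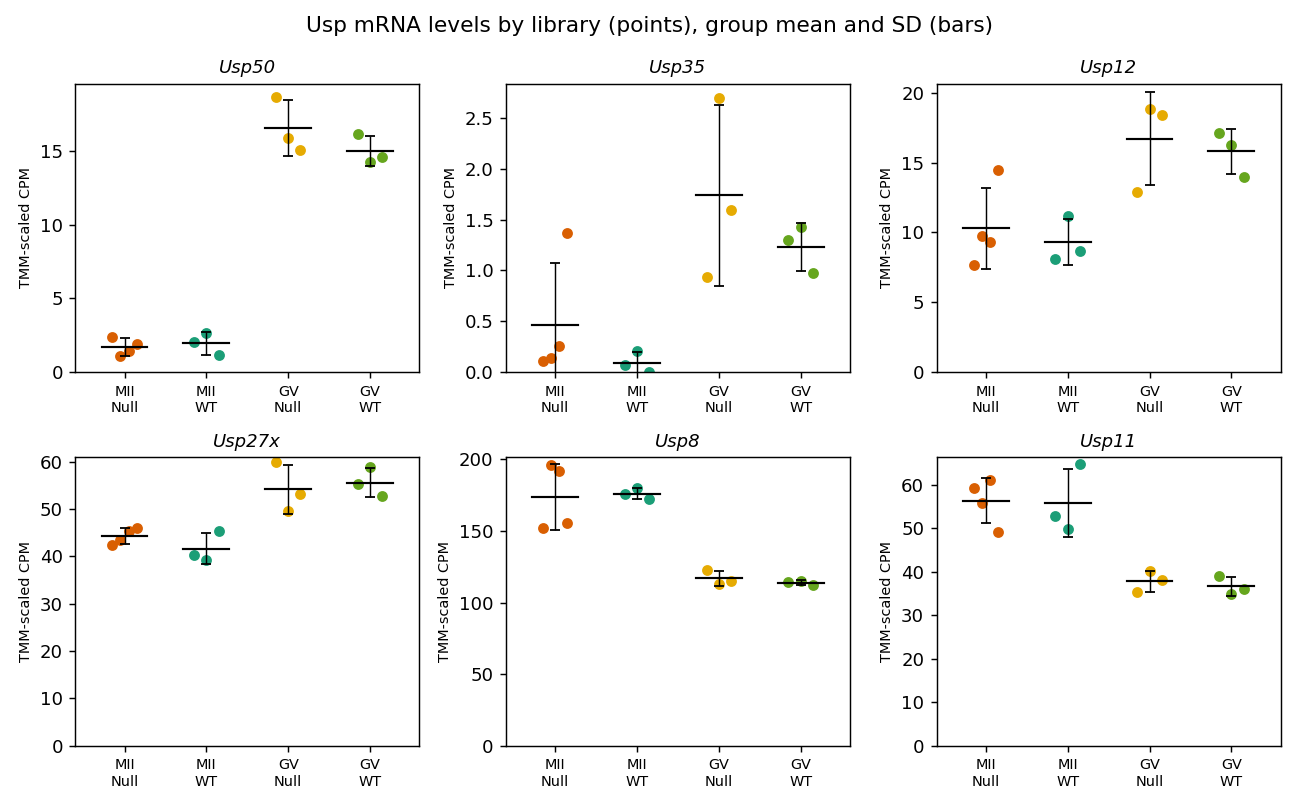
TMM-scaled CPM of 6 Usp genes in each of the 13 libraries (points), with group mean and SD, from MII Null on the left to GV WT on the right. Usp50 lies between 1.08 and 2.65 CPM in eggs and between 14.3 and 18.7 CPM in GV oocytes, and Usp8 and Usp11 are higher in all egg libraries than in any GV library.

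Among the 10 genes that act on histones or chromatin, 4 rose and 2 fell in Null, and 3 rose and 1 fell in WT. Over all genes tested, 22.1% rose and 26.9% fell in Null, and 19.9% rose and 22.8% fell in WT. The median log2 fold change of the 10 was 0.20 in Null and 0.23 in WT, and without TMM factors -0.03 and 0.03. Usp21, which removes ubiquitin from histone H2A, was at 43.9, 47.4, 53.3 and 44.1 CPM in MII Null and 44.7, 42.9 and 46.6 CPM in MII WT, against 35.7, 28.5 and 27.8 CPM in GV Null and 29.4, 31.03 and 32.03 CPM in GV WT. All egg libraries lay above all GV libraries. It rose by 0.62 in Null (SE 0.10, adjusted p = 4.88e-05 by edgeR) and by 0.54 in WT (SE 0.10, adjusted p = 0.000399) on the log2 scale. Usp16, an H2A protease linked to mitosis in human cells, rose by 0.36 in Null (adjusted p = 0.00190) and 0.29 in WT (adjusted p = 0.0135), though in WT it had 0.26 without MII WT replicate 2 and 0.27 without GV WT replicate 3 (adjusted p = 0.0605 and 0.0562). Usp3, also directed at H2A, had 0.17 in Null (adjusted p = 0.116) and 0.25 in WT (adjusted p = 0.0395), and its WT call was lost in 9 of the 13 fits without 1 library (log2 fold change 0.20 to 0.28). Usp36 of the nucleolus, Usp44 and the H2B protease Usp49 passed in neither genotype.

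Usp22 is the deubiquitinase of the SAGA coactivator, and Usp51 and Usp27x are relatives that use the same Atxn7l3 and Eny2 cofactors in human cells. Usp51, on the X chromosome, stood at 10.96, 11.2, 13.3 and 11.96 CPM in MII Null and 9.86, 9.37 and 9.42 CPM in MII WT. GV oocytes had 6.26, 7.02 and 6.12 CPM in Null and 7.25, 9.47 and 6.93 CPM in WT. The Null stages were fully apart, while the highest GV WT library overlapped the MII WT libraries. On the log2 scale the change was 0.88 in Null (SE 0.13, adjusted p = 2.91e-05 by edgeR) and 0.28 in WT (SE 0.14, adjusted p = 0.120).

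Usp22 stood at 9.04, 10.4, 10.3 and 16.5 CPM in MII Null and 15.02, 12.1 and 12.2 CPM in MII WT, against 12.9, 19.7 and 16.9 CPM in GV Null and 13.7, 14.00 and 12.6 CPM in GV WT. The stages overlapped in both genotypes. On the log2 scale the change was -0.51 in Null (SE 0.18, adjusted p = 0.0265 by edgeR) and -0.04 in WT (SE 0.19, adjusted p = 0.898). With GV Null replicate 1 as the only GV Null library, the Null value was -0.15. It was -0.36 without GV Null replicate 2 (adjusted p = 0.149), and -0.49 to -0.44 without GV Null replicate 3 or without MII Null replicate 1, 2 or 3 (adjusted p up to 0.0731). The Null value of Usp22 was smaller in size without GV Null replicate 2 or 3, whose cumulus marker sums were high. It was also smaller without MII Null replicate 1, 2 or 3, whose sums were low. MII Null replicate 4, with the highest sum of the MII Null libraries, held the most Usp22 of them, and the call stayed without it. The part of cumulus cells in the Usp22 value was not tested.

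Of the 3 enzymes activated by Wdr48, Usp1 rose, Usp12 fell and Usp46 did not pass in either genotype. Usp1, which removes ubiquitin from Fancd2 and PCNA, averaged 199 ± 20.9 CPM (SD, n = 4) in MII Null and 192 ± 6.35 CPM (SD, n = 3) in MII WT, against 137 ± 15.6 CPM (SD, n = 3) in GV Null and 146 ± 3.09 CPM (SD, n = 3) in GV WT. It rose by 0.54 in Null (adjusted p = 5.49e-05 by edgeR) and by 0.39 in WT (adjusted p = 0.00206) on the log2 scale. Usp46, a paralog of Usp12, averaged 1040.0 ± 40.9 CPM (SD, n = 4) in MII Null and 967 ± 75.9 CPM (SD, n = 3) in MII WT, against 942 ± 110.1 CPM (SD, n = 3) in GV Null and 968 ± 62.3 CPM (SD, n = 3) in GV WT. Its stages overlapped in both genotypes, with log2 fold changes of 0.14 in Null and 0.00 in WT (adjusted p = 0.155 and 0.989).

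The cofactors of these enzymes were also measured. Wdr48 rose by 0.59 in Null (SE 0.08, adjusted p = 4.66e-06 by edgeR) and by 0.51 in WT (SE 0.08, adjusted p = 4.97e-05) on the log2 scale. Wdr20 rose by 0.56 in Null and 0.46 in WT, Wdr20rt, its retrotransposed copy by name, by 0.52 and 0.34, and Dmwd by 0.35 and 0.54 (the largest adjusted p among them was 0.0134). Without TMM factors Wdr48 and Wdr20 still rose in both genotypes, while Dmwd did not pass in Null (0.12, adjusted p = 0.282), Wdr20rt did not pass in WT (0.14, adjusted p = 0.288) and Usp1 passed in Null alone. Of 17 listed partners of Usp genes, 16 were tested. In Null 9 rose and 3 fell, and in WT 8 rose and 1 fell, with medians of 0.33 in Null and 0.24 in WT, where of all genes 22.1% rose and 26.9% fell in Null and 19.9% rose and 22.8% fell in WT. Without TMM factors 6 partners rose and 6 fell in Null, and 5 rose and 4 fell in WT. Of all genes 9.90% then rose and 36.2% fell in Null, and 9.12% rose and 29.3% fell in WT. Of the SAGA module, Eny2 rose by 0.62 in Null and 0.73 in WT, and Atxn7l1 by 0.58 and 0.71. Atxn7l3, the other cofactor of the Usp22 group, fell in Null (log2 fold change -3.33, SE 0.92, adjusted p = 0.00600 by edgeR) and had -1.98 in WT (SE 1.04, adjusted p = 0.137). It was scarce, at 0, 0.105, 0.0953 and 0.0311 CPM in MII Null and 0.132, 0.0344 and 0.0317 CPM in MII WT, against 0.0491, 1.05 and 0.659 CPM in GV Null and 0.358, 0.376 and 0.0748 CPM in GV WT. Its highest values were in GV Null replicates 2 and 3, the libraries with the high cumulus marker sums, and the part of those cells in it was not tested. Uimc1, a ubiquitin reader of the BRCA1-A complex, fell by 0.47 in Null and by 0.59 in WT.

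**Figure D3:**
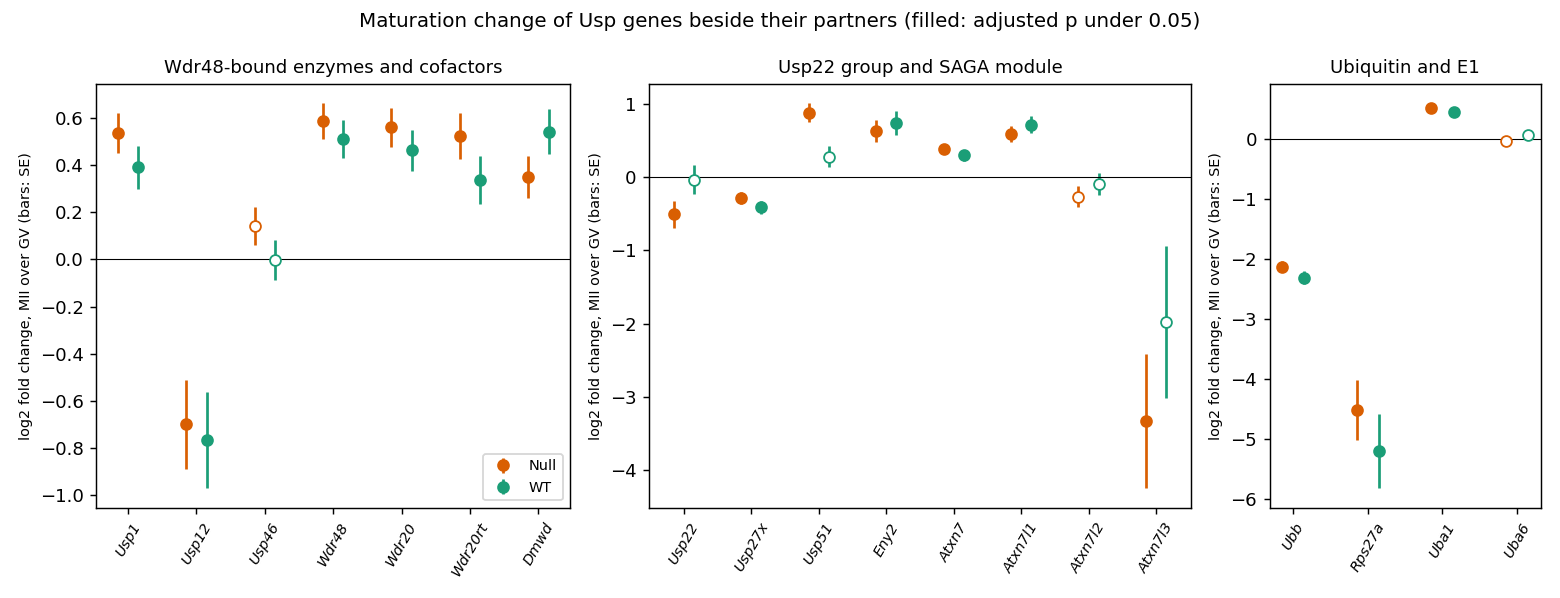
Log2 fold changes of MII eggs over GV oocytes, with the SE as bars, in Null (left of each pair) and WT (right), for Wdr48-bound enzymes with their cofactors, the Usp22 group with its SAGA partners, and ubiquitin and E1 genes. Filled points passed the test. Wdr48 lies above 0, at 0.59 in Null and 0.51 in WT, while Usp12 lies below 0, at -0.70 and -0.77, and Ubb and Rps27a lie below -2.

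Among the 6 genes of p53 control, DNA damage and replication, 5 rose in Null (22.1% of all genes did) and 3 in WT (19.9% of all genes), and 0 fell (26.9% and 22.8% of all genes). Without TMM factors 2 rose and 1, Usp7, fell in each genotype (all genes: 9.90% higher and 36.2% lower in Null, 9.12% and 29.3% in WT). Usp11, an X-linked enzyme tied to BRCA2 and homologous recombination, was at 59.2, 55.8, 60.97 and 49.2 CPM in MII Null and 52.8, 49.9 and 64.7 CPM in MII WT, against 35.3, 40.1 and 38.1 CPM in GV Null and 39.1, 34.8 and 36.02 CPM in GV WT. Eggs and GV oocytes did not overlap. Usp11 rose by 0.57 in Null (SE 0.10, adjusted p = 0.000119 by edgeR) and by 0.61 in WT (SE 0.11, adjusted p = 0.000147).

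Usp28, which stabilises Myc and binds 53BP1, was at 399.8, 446, 474 and 419.9 CPM in MII Null and 421, 432 and 446 CPM in MII WT. The GV values were 327, 231 and 258 CPM in Null and 302, 315 and 291 CPM in WT. Its stages, too, did not overlap. It rose by 0.68 in Null (SE 0.09, adjusted p = 1.19e-05 by edgeR) and by 0.52 in WT (SE 0.10, adjusted p = 0.000397). Usp7, which acts on Mdm2 and p53, averaged 414 ± 29.9 CPM (SD, n = 4) in MII Null and 425 ± 1.495 CPM (SD, n = 3) in MII WT, against 411 ± 63.8 CPM (SD, n = 3) in GV Null and 461 ± 4.001 CPM (SD, n = 3) in GV WT. Its log2 fold changes were 0.01 in Null and -0.12 in WT (adjusted p = 0.934 and 0.317), and in WT it passed as lower with the filter of 5 CPM. Without TMM factors it passed as lower in both, at -0.21 in Null and -0.32 in WT.

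Usp5 and Usp13 disassemble free ubiquitin chains, and Usp14 trims ubiquitin at the proteasome. Usp13 was at 8.81, 8.71, 8.83 and 7.08 CPM in MII Null and 9.83, 7.71 and 9.36 CPM in MII WT, against 7.26, 5.32 and 5.905 CPM in GV Null and 7.698, 5.84 and 5.18 CPM in GV WT. The Null stages overlapped, and the WT stages lay next to each other without overlap. Usp13 rose by 0.44 in Null (SE 0.16, adjusted p = 0.0318 by edgeR) and by 0.52 in WT (SE 0.17, adjusted p = 0.0198). The WT call was lost without MII WT replicate 1 (log2 fold change 0.45, adjusted p = 0.0812), MII WT replicate 3 (0.49, adjusted p = 0.0629), GV WT replicate 2 (0.48, adjusted p = 0.0740) or GV WT replicate 3 (0.41, adjusted p = 0.105). The Null call was lost without MII Null replicate 1, 2 or 3 or GV Null replicate 2 or 3 (0.34 to 0.41, adjusted p up to 0.143). Usp5, at log2 fold changes of -0.08 in Null and 0.03 in WT, and Usp14, at -0.11 and -0.17, did not pass, though Usp14 passed as lower in both genotypes with the filter of 5 CPM.

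Of the 5 genes of the cell cycle, cyclins and splicing, 2 rose in each genotype, and 1 fell in Null, where 22.1% of all genes rose and 26.9% fell in Null and 19.9% rose and 22.8% fell in WT. Usp33, which binds the VHL protein, was at 50.9, 56.4, 59.7 and 54.5 CPM in MII Null and 55.2, 58.03 and 57.9 CPM in MII WT, against 46.6, 40.1 and 39.3 CPM in GV Null and 42.99, 42.2 and 43.7 CPM in GV WT, and the stages were apart in both genotypes. It rose by 0.40 in Null (SE 0.08, adjusted p = 0.000517 by edgeR) and by 0.41 in WT (SE 0.09, adjusted p = 0.000844). Usp37, which stabilises cyclin A, rose by 0.43 in Null (adjusted p = 0.000117) and 0.30 in WT (adjusted p = 0.00443). Usp20, the paralog of Usp33, went the other way, with -0.52 in Null (SE 0.13, adjusted p = 0.00344) and -0.35 in WT (SE 0.14, adjusted p = 0.0532). The close relatives Usp33 and Usp20 thus parted in Null, where both passed, though without TMM factors Usp33 had 0.17 there (adjusted p = 0.0527). Usp39, a splicing factor without protease activity, and Usp2 passed in neither.

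Of 7 tested genes of endosomes, autophagy, mitochondria and the endoplasmic reticulum, 4 rose, Usp8 among them, and 1, Usp35, fell in each genotype (all genes: 22.1% higher and 26.9% lower in Null, 19.9% and 22.8% in WT). Without TMM factors 2 rose, Usp8 and Usp10 (all genes: 9.90% higher in Null and 9.12% in WT). Usp10, which binds the stress granule protein G3bp1, was at 162, 184, 193 and 147 CPM in MII Null and 156, 159.6 and 184 CPM in MII WT, against 119, 111 and 114 CPM in GV Null and 122, 122 and 124 CPM in GV WT. No egg library overlapped the GV libraries. Usp10 rose by 0.58 in Null (SE 0.09, adjusted p = 2.64e-05 by edgeR) and by 0.44 in WT (SE 0.09, adjusted p = 0.000785). Usp30, on the mitochondrial outer membrane, rose by 0.39 in both (adjusted p = 0.000669 in Null and 0.00128 in WT), and Usp19, anchored in the endoplasmic reticulum, by 0.36 in Null and 0.26 in WT (adjusted p = 0.000534 and 0.0113). Without MII WT replicate 3 or GV WT replicate 3, Usp19 had 0.22 and 0.23 in WT (adjusted p = 0.0662 and 0.0600). Usp9x, a large X-linked enzyme, averaged 2677 ± 290.2 CPM (SD, n = 4) in MII Null and 2679 ± 198 CPM (SD, n = 3) in MII WT, against 2558 ± 318 CPM (SD, n = 3) in GV Null and 2666 ± 25.8 CPM (SD, n = 3) in GV WT. Its log2 fold change was 0.07 in Null (SE 0.09) and 0.01 in WT (SE 0.10), and it did not pass.

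Of 5 tested genes of growth factor, Wnt and innate signalling, 4 rose and 1 fell in Null, and 3 rose in WT, beside 22.1% of all genes higher and 26.9% lower in Null and 19.9% and 22.8% in WT. Without TMM factors 0 rose, and 1 fell in each genotype (all genes: 9.90% higher and 36.2% lower in Null, 9.12% and 29.3% in WT). Usp15, which acts on receptors and Smads of TGF-beta signalling, rose by 0.40 in Null (adjusted p = 0.000506 by edgeR) and 0.30 in WT (adjusted p = 0.00823), with 0.25 in WT without MII WT replicate 2 (adjusted p = 0.0544). Usp34, tied to axin and Wnt signalling, rose by 0.36 and 0.34 (adjusted p = 0.00179 and 0.00511). Usp4, a paralog of Usp15, had 0.23 in Null (adjusted p = 0.0206) and -0.02 in WT (adjusted p = 0.875). Its Null value was 0.16 without MII Null replicate 3 (adjusted p = 0.116), 0.21 without GV Null replicate 2 (adjusted p = 0.0751) and 0.18 when GV Null replicate 3 was left out (adjusted p = 0.106). Usp25 fell by 0.84 in Null (SE 0.31, adjusted p = 0.0332) and had -0.17 in WT (adjusted p = 0.730), and the Null value did not pass without GV Null replicate 2 (-0.41, adjusted p = 0.335), MII Null replicate 2 (-0.68, adjusted p = 0.0887) or MII Null replicate 3 (-0.81, adjusted p = 0.0669).

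Usp53 and Usp54 were long annotated as lacking peptidase activity. Usp54 was at 89.00, 107, 96.7 and 91.9 CPM in MII Null and 103, 103 and 101 CPM in MII WT, against 81.6, 67.2 and 74.4 CPM in GV Null and 73.1, 74.5 and 76.7 CPM in GV WT. Its stages did not overlap. It rose by 0.37 in Null (SE 0.08, adjusted p = 0.000847 by edgeR) and by 0.45 in WT (SE 0.08, adjusted p = 0.000290). Usp53 had 0.37 in Null (adjusted p = 0.00232) and 0.22 in WT (adjusted p = 0.0715). Of the remaining genes, Usp31 and Usp43 rose in both genotypes, by 0.41 and 0.42 in Null and by 0.32 each in WT. Usp45 passed in Null, at 0.27 (adjusted p = 0.0223), and had 0.12 in WT (adjusted p = 0.363). Its Null call was lost without MII Null replicate 2 or 3 or GV Null replicate 2 or 3. Usp48 and the endosomal Usp32 passed in neither. The X-linked, germ line Usp26 was at 7.996, 11.02, 15.1 and 11.7 CPM in MII Null and 8.47, 13.02 and 9.33 CPM in MII WT, against 9.91, 6.83 and 6.92 CPM in GV Null and 8.44, 8.06 and 7.43 CPM in GV WT. Its Null stages overlapped and its WT stages nearly touched, with 0.53 in Null (SE 0.20, adjusted p = 0.0338) and 0.36 in WT (SE 0.21, adjusted p = 0.180). In Null it failed the test without MII Null replicate 2, 3 or 4 or GV Null replicate 2 or 3, where it lay between 0.35 and 0.52. Last, the multicopy Usp17le had 1 to 34 counts per library, with SEs of 0.73 in Null and 0.82 in WT around fitted changes of -0.73 and 0.15.

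Deubiquitinases of other families were counted in the same way. Of 37 listed, 35 were tested, and 7 rose and 8 fell in Null and 6 rose and 6 fell in WT, with medians of 0.03 and -0.02. Of all genes 22.1% rose and 26.9% fell in Null and 19.9% rose and 22.8% fell in WT. Without TMM factors 3 rose and 13 fell in Null, and 1 rose and 12 fell in WT. Of all genes 9.90% then rose and 36.2% fell in Null, and 9.12% rose and 29.3% fell in WT. The difference between these families and the Usp genes was not tested. Uchl1, an abundant ubiquitin hydrolase of oocytes and neurons, fell by 1.07 in Null (SE 0.08, adjusted p = 3.26e-09 by edgeR) and by 1.12 in WT (SE 0.08, adjusted p = 6.95e-09). Psmd14, the deubiquitinase of the proteasome lid, fell by 1.21 in Null and 1.14 in WT, and Otulin, which cuts linear chains, by 1.38 and 1.37. Atxn3, named for spinocerebellar ataxia, rose by 0.77 in Null (adjusted p = 7.27e-05) and 0.51 in WT (adjusted p = 0.00501), and without TMM factors by 0.54 in Null, with 0.31 in WT (adjusted p = 0.0684).

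Of 4 tested genes of ubiquitin and its activating E1 enzymes, 2 fell and 1 rose in both genotypes, where 26.9% of all genes fell and 22.1% rose in Null and 22.8% fell and 19.9% rose in WT. Ubb, which encodes ubiquitin, fell by 2.13 in Null (SE 0.09, adjusted p = 1.03e-11 by edgeR) and by 2.31 in WT (SE 0.11, adjusted p = 2.03e-11) on the log2 scale. Rps27a, a ubiquitin fusion with a ribosomal protein, fell by 4.51 in Null and 5.20 in WT. Both genes have processed pseudogene copies, and how reads that map to several places were counted is not given in the sources used here, so these values are uncertain. Uba1, the main ubiquitin-activating enzyme, rose by 0.51 in Null (adjusted p = 3.75e-05) and 0.44 in WT (adjusted p = 0.000401). Ubb, Rps27a and Uba1 passed in the same directions without TMM factors.

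Between Null and WT eggs, 0 of 50 Usp genes passed (edgeR's quasi-likelihood test), against 0.0546% of all genes (0.0149% higher, 0.0397% lower). At an unadjusted p under 0.05 there were 3 (6%, against 6.35% of all genes), and DESeq2 called 0 (against 0.204%). The median log2 fold change was 0.01, as over all genes, and 27 of 50 lay above 0. In GV oocytes, too, 0 of 50 passed, against 0.0546% of all genes (0.0248% higher, 0.0298% lower). There 2 had an unadjusted p under 0.05 (4%, against 6.66%), and DESeq2 called 0 (against 0.134%). The median there was -0.04, against 0.02 over all genes, and 13 of 50 lay above 0 (26%, against 53.7%). In GV Null the summed share of counts was 0.954%, 0.844% and 0.874% in replicates 1 to 3, against 0.913% to 0.931% in GV WT. With replicate 1 as the only GV Null library, the GV values of the Usp genes moved by a median of 0.10, which is larger than their distance from 0.

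These comparisons bounded the difference for most of the family. The 95% interval of the log2 fold change lay within 0.5 of 0 for 39 of 50 genes in eggs and for 41 of 50 in GV oocytes. The fitted log2 fold change was under 0.25 in size for 47 of 50 genes in eggs (94%, against 69.3% of all genes) and for 43 of 50 in GV oocytes (86%, against 70%). The filter of 5 CPM kept 45 of the Usp genes but 11188 of the 20143 genes, so this background differs in level. Shares among genes of like level were not computed. Null libraries lay above all WT libraries for 3 genes in eggs, Usp4, Usp29 and Usp51 (6%, against 2.94%), and below them for 0 (against 3.13%). In GV oocytes they lay above for 1 gene, Usp49 (2%, against 6.83%), and below for 2, Usp10 and Usp42 (4%, against 5.92%).

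**Figure D4:**
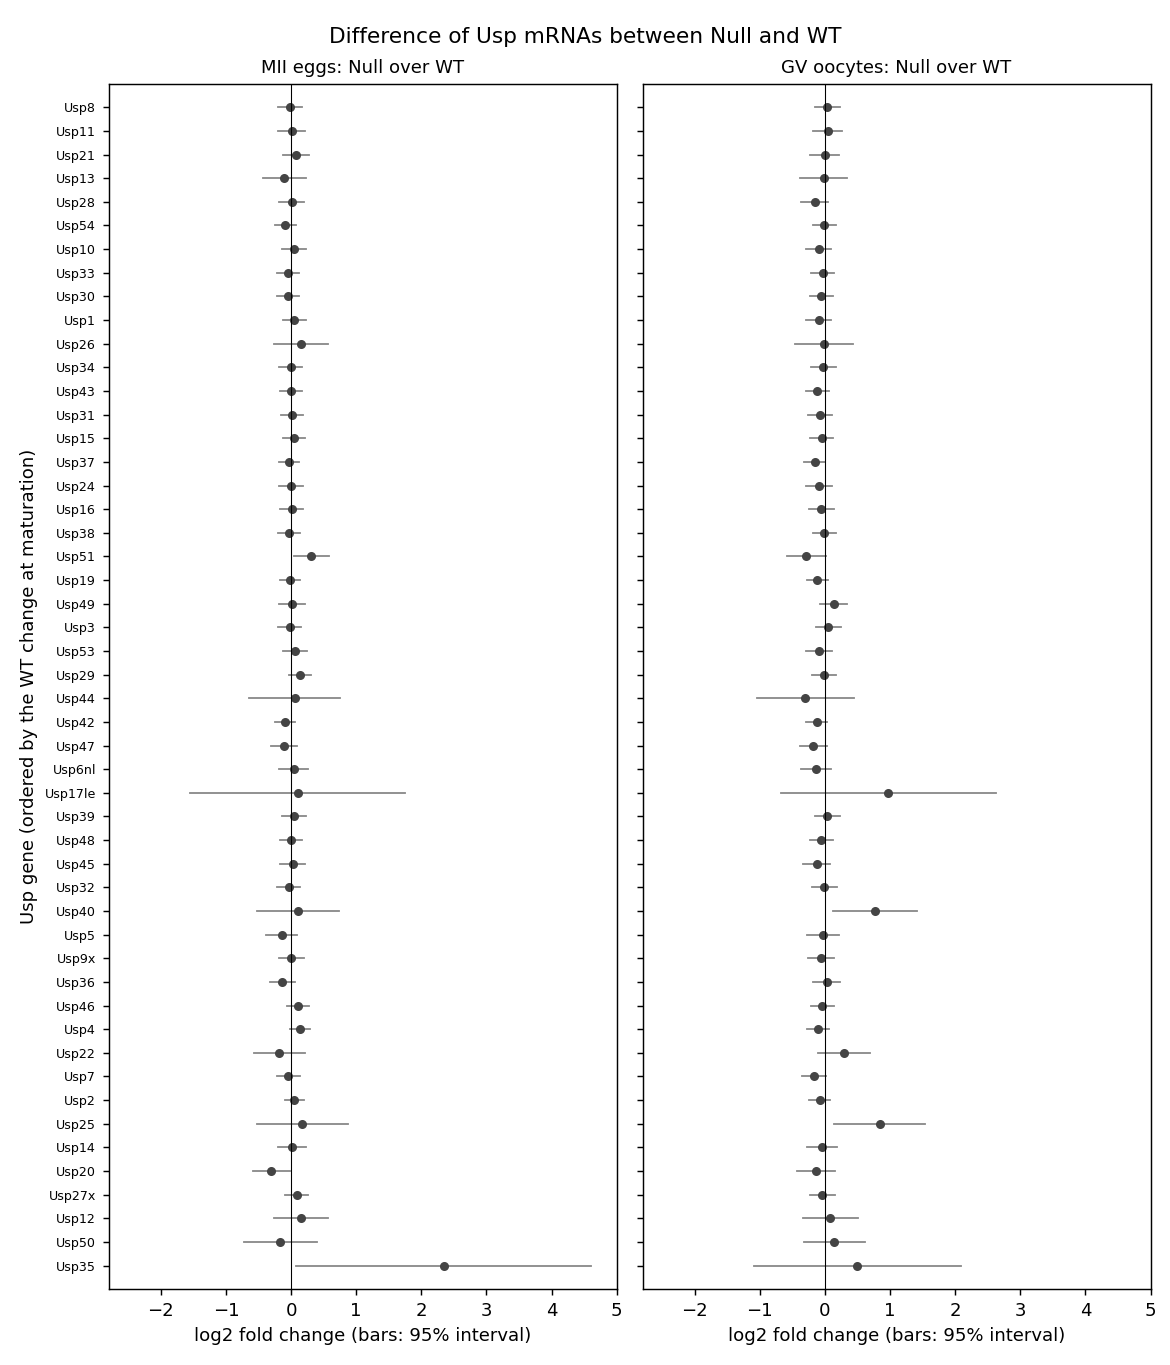
Log2 fold changes of Null over WT in MII eggs (left) and GV oocytes (right) for the 50 tested Usp genes, with 95% intervals, in the order of the WT change at maturation. The points lie close to 0 with short intervals, apart from genes of few counts such as Usp35, at 2.34 in eggs, and Usp40 and Usp25, at 0.77 and 0.84 in GV oocytes.

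Usp51 had the smallest unadjusted p in eggs and in the test of the difference. Its MII Null libraries, from 10.96 to 13.3 CPM, lay above its MII WT libraries, from 9.37 to 9.86 CPM, while the GV Null libraries, from 6.12 to 7.02 CPM, overlapped the GV WT libraries, from 6.93 to 9.47 CPM. The log2 fold change of Null over WT was 0.31 in eggs (SE 0.13, adjusted p = 0.760 by edgeR) and -0.28 in GV oocytes (SE 0.14, adjusted p = 0.755). The difference between stages was 0.60 (SE 0.19, adjusted p = 0.999). It did not pass over all genes. Of the whole family, 2 genes had an unadjusted p under 0.05 for this difference (4%, against 3.38%). With edgeR 0 passed (against 0.00496% of all genes), and DESeq2 called 0 (against 0.00993%). The interval of the difference lay within 0.5 of 0 for 38 of 50.

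Usp20 stood at 11.1, 9.48, 10.48 and 12.1 CPM in MII Null and 10.9, 14.5 and 14.5 CPM in MII WT, and 1 WT library lay among the Null libraries. Its log2 fold change in eggs was -0.30 (SE 0.13, adjusted p = 0.772 by edgeR). Usp4 stood at 81.8, 80.9, 91.2 and 80.3 CPM in MII Null and 70.9, 78.6 and 78.4 CPM in MII WT, without overlap and with a log2 fold change of 0.14 (SE 0.08, adjusted p = 0.827). The value for Usp35 in eggs, 2.34 (SE 1.05, adjusted p = 0.772), came from 44 counts in MII Null replicate 4, and without that library it was 0.88 (adjusted p = 0.865). For Usp22 in eggs the difference instead grew in size without MII Null replicate 4, from -0.18 with all libraries to -0.39 (adjusted p = 0.931 and 0.614).

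In GV oocytes the smallest p belonged to Usp25 and Usp40. Usp25 stood at 1.96, 3.404 and 1.37 CPM in GV Null, against 1.48, 1.202 and 1.07 CPM in GV WT, and Usp40 at 2.45, 6.55 and 4.53 CPM in GV Null, against 2.66, 3.48 and 1.77 CPM in GV WT. Both were high in GV Null replicate 2, the library with the highest sum of cumulus markers, and both overlapped with WT. The log2 fold changes were 0.84 for Usp25 (SE 0.33, adjusted p = 0.709 by edgeR) and 0.77 for Usp40 (SE 0.31, adjusted p = 0.709). With GV Null replicate 1 as the only GV Null library, whose spread is then taken from the other groups, Usp40 had -0.11 and Usp25 0.65. The part of cumulus RNA in these values was not tested. After these came Usp51, given above, and Usp37. Usp37 was at 201, 174 and 173 CPM in GV Null, against 199.7, 202 and 210.0 CPM in GV WT, with a log2 fold change of -0.16 (SE 0.08, adjusted p = 0.757).

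**Figure D5:**
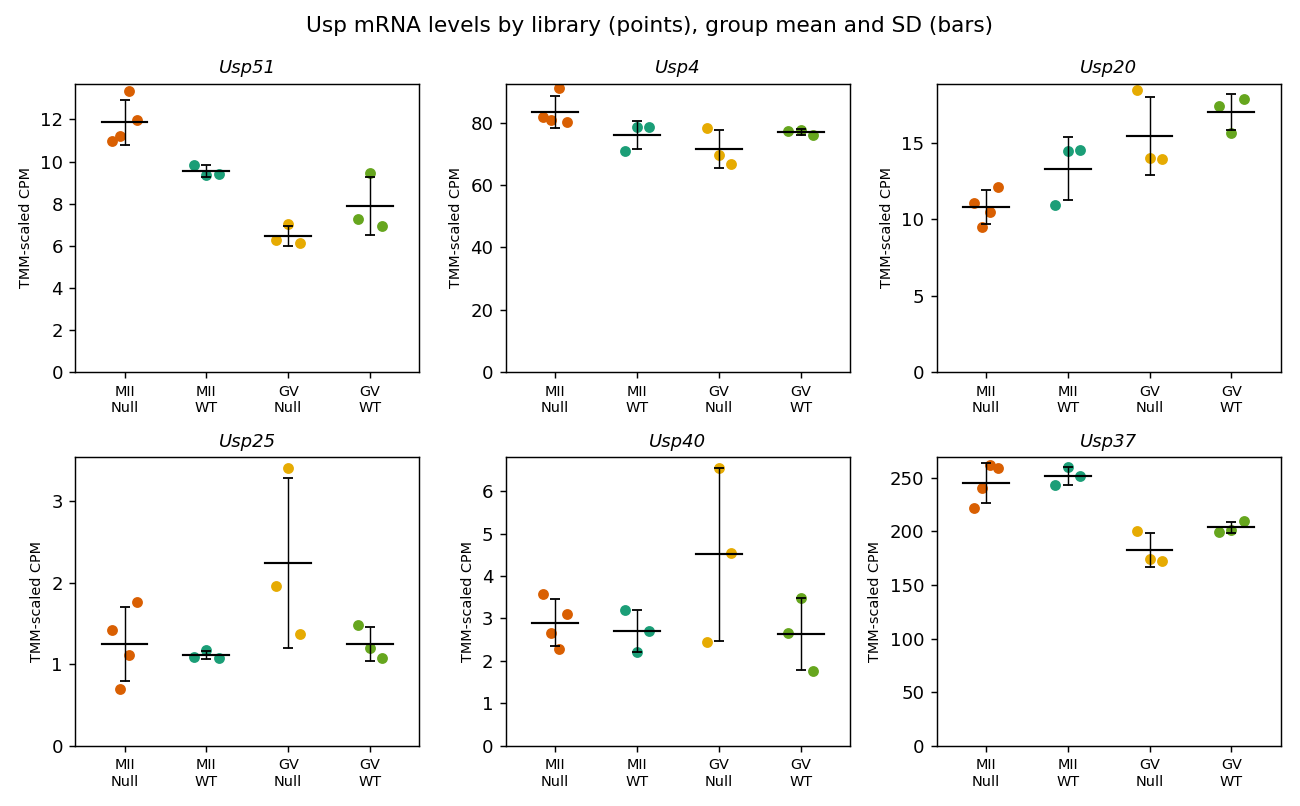
TMM-scaled CPM of Usp51, Usp4, Usp20, Usp25, Usp40 and Usp37, which were among the genes with the smallest p between Null and WT. Points are the 13 libraries, with group mean and SD, from MII Null on the left to GV WT on the right. Usp35, also among the smallest p in eggs, is not shown. Usp51 is higher in all MII Null libraries than in MII WT, and Usp25 and Usp40 are highest in GV Null replicate 2, at 3.40 and 6.55 CPM.

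No Usp gene lies close to the deleted promoter. Of the 58 genes, 9 lie on chromosome 7 with Sirena1, the nearest being Usp29 at 40.0 Mb and Usp35 at 50.33 Mb. Among the 9, Usp17la, Usp17lb, Usp17lc and Usp17ld were not tested, and none of the rest passed between Null and WT. Without a filter on low counts, Usp35 passed in eggs. Usp29, an imprinted gene of the Peg3 region, had log2 fold changes of 0.14 in eggs and -0.01 in GV oocytes (adjusted p = 0.843 and 0.992 by edgeR). None of the other deubiquitinases, the partners or the ubiquitin and E1 genes passed between Null and WT either. They stood at 0 of 35, 0 of 16 and 0 of 4 in both stages by edgeR, where 0.0546% of all genes passed at each stage.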

How the data were processed

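The authors deposited a table of raw read counts per gene for 54232 Ensembl genes in 13 libraries, with no normalization. Per the labels' protocols, total RNA of 25 cells was extracted with PicoPure columns, amplified with the Ovation V2 system and read as single ends, and the RNA is labelled polyA. The submitters' processing notes list STAR 2.5.3a, bedtools 2.26.0 and GRCm38.p6. How reads were counted, whether by strand and with or without those that map to several places, is not given in the sources used here, and no count of the luciferase spike was used.

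Symbols came from a table of gene names, which matched 54079 IDs. Coordinates and promoters are RefSeq's on GRCm38.p6. The model was edgeR 4.0.16 under R 4.3.3 (glmQLFit, robust, and glmQLFTest, two-sided) with all 13 libraries in 1 model of 4 groups, TMM scaling and filterByExpr, which kept 20143 genes. Adjusted p values are Benjamini-Hochberg values over all these genes, with a threshold of 0.05. CPM are TMM-scaled. Reads carry no molecular identifiers, so the limit of 3 counts covers counting error alone.

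The members, roles and other lists were chosen with earlier results of these data known. Named were up to 8 genes per direction that passed at maturation in WT, with at least 2 CPM in the higher group and no overlap of libraries. In each genotype comparison and in the test of the difference, the 4 genes with the smallest p were named, and further members are given by role. Some genes of the ubiquitin list are not reported here. Levels were not ranked between genes, because transcript lengths were not used here. Alternatives were RLE scaling, DESeq2 1.42.0, no filter, a filter of 5 CPM, only the groups compared, the replicate number as a block, each library left out, and GV Null replicate 1 as the only GV Null library. Scaling by library totals without TMM factors, and the cumulus marker sum without Nr5a2 and Cyp19a1, were added after the data were seen. Samples of the same number were not treated as pairs in the main model, and whether they pair is not settled.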

Additional observations from a re-analysis of the deposited data

Results flagged for a closer look

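In 3 genes a single MII Null library lay far from the other 3, by Dixon's test of the gap between the outermost value and its neighbour. Usp13 was at 7.08 CPM in MII Null replicate 4, against 8.71 to 8.83 CPM in the others. Usp35 was at 1.366 CPM in MII Null replicate 4, against 0.105 to 0.254 CPM. Usp4 was at 91.2 CPM in MII Null replicate 3, against 80.3 to 81.8 CPM. Chance flags about 1 in 20 groups, and 20 quantities were looked at. Replicate 4 was the MII Null library nearest to the GV libraries on the leading principal component. Among the 24 Usp genes that passed at maturation in WT, the MII Null library closest to the GV Null level was replicate 1 for 15 and replicate 4 for 9.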

How the results depend on the processing

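At maturation in WT, 24 Usp genes passed (20 higher), 48% against 42.7% of all genes. The count was 24 with RLE scaling (48%, against 42%) and 24 with DESeq2 (48%, against 42.8%), 19 higher each. Without a filter it was 24 of 58 (41.4%, against 22.3%), and with the filter of 5 CPM 22 of 45 (48.9%, against 54.4%). It was 31 with only the groups compared (62%, against 51.8%) and 17 by library totals without TMM factors (34%, against 38.4%). With 1 library left out it was 19 to 27 (37.3% to 54%, against 34.5% to 43.4%). In Null the count of 35 was 35 with RLE scaling, 36 with DESeq2, 36 without a filter, 27 of 45 with the filter of 5 CPM (60%, as of all genes), 27 with only the groups compared (54%, against 43.6%), 22 by library totals without TMM factors (44%, against 46.1%), 25 to 38 with 1 library left out, and 16 of 52 with GV Null replicate 1 as the only GV Null library (30.8%, against 26.1%). In Null 70% of the Usp genes passed with RLE scaling, against 49.2% of all genes, and 72% with DESeq2, against 49.4%. Without a filter 62.1% of the 58 Usp genes passed in Null, against 28.1% of all genes. In the Null fits with 1 library left out, 50% to 76% of the Usp genes passed, against 40.1% to 49.8% of all genes. With GV Null replicate 1 as the only GV Null library, which leaves fewer samples, Usp40 reversed, to -0.11 in GV oocytes and 0.21 in the difference between stages. Between Null and WT the counts in GV oocytes and in the difference stayed at 0 in each alternative run. There at most 1.63% and 0.397% of all genes passed. In eggs the count was 1 of 58 without a filter (1.72%, against 0.732% of all genes) and 0 in the others (against at most 0.204%). Without a filter Usp35 had a log2 fold change of 2.35 and an adjusted p of 0.00538 by edgeR. The cause was not tested. Deviations of same-numbered libraries correlated at -0.13 to 0.22, highest between Null and WT in replicate 3 (0.22 in MII and 0.15 in GV). With 3 or 4 libraries per group this cannot show whether the numbers pair the samples. With the replicate block, 24 Usp genes passed at maturation in WT (48%, against 43.4% of all genes) and 34 in Null (68%, against 49%). Between Null and WT 0 passed (against 0.0546% of all genes in GV oocytes and 0.0596% in eggs). Genes under about 3 CPM, such as Usp35, Usp44 and Usp17le, were limited by their counts, and intervals were wider there.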
